A study of Mus musculus with 24 samples.

Results

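CXC chemokines are small secreted proteins that guide leukocytes through tissue, and 10 of their genes were followed here across diesel exhaust and ovalbumin in mouse lung: Cxcl1, Cxcl2, Cxcl5, Cxcl9, Cxcl10, Cxcl12, Cxcl13, Cxcl14, Cxcl15 and Cxcl16. They were chosen by name, as every probe set annotated to 1 of these symbols and to no other gene. This gave 14 probe sets of the 22626 on the array that are not controls. Of these 14, 9 probe sets of 5 genes were bright enough to enter the tests, among 13575 tested in all.

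Lung RNA of mice was hybridised to 24 Affymetrix arrays in 6 groups of 4. The mice breathed filtered air, diesel exhaust at 500 ug/m3 (DE 500) or diesel exhaust at 2000 ug/m3 (DE 2000). Exposure lasted 4 hours daily over 5 days. Each exposure was combined with saline or with 100 ug of ovalbumin (OVA), an egg protein widely used to sensitise mice, on 3 days. The groups are therefore air with saline, DE 500 with saline, DE 2000 with saline, air with OVA, DE 500 with OVA and DE 2000 with OVA. The strain, sex, age and route of dosing of the mice are not given in the sources used here. Nor do the labels tie replicates to animals, so p-values measure only the spread between these arrays, and 4 arrays a group limit the precision.

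CXC chemokines fall into families by the receptor they use. Cxcl1, Cxcl2 and Cxcl5 carry the ELR motif and draw neutrophils through Cxcr2, and their transcripts are induced in epithelium and macrophages by cytokines acting through NF-kappaB. Cxcl9 and Cxcl10 are induced by interferon and draw T cells through Cxcr3, whereas Cxcl12 (Cxcr4), Cxcl13 (Cxcr5), Cxcl14 and the membrane-bound Cxcl16 (Cxcr6) are made in tissue at rest. Cxcl15, also called lungkine, is a mouse chemokine made by the epithelium of the lung and known for its part in neutrophil movement into the airspace.

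In mouse, 7 of the 10 genes lie on chromosome 5, and Cxcl15, Cxcl1 and Cxcl2 follow each other there. RefSeq promoter sequences (GRCm38.p6) matched 8 of the 10 members; Cxcl5 and Cxcl16 were not matched. The 250 bases before the start of these 3 neighbours are shown because their array signals behaved differently. Capitals mark matches to the NF-kappaB consensus, searched by name on both strands. The windows are chr5:90890995-90891244 for Cxcl1, chr5:90903649-90903898 for Cxcl2 and chr5:90794284-90794533 for Cxcl15, all on the plus strand.
Cxcl1: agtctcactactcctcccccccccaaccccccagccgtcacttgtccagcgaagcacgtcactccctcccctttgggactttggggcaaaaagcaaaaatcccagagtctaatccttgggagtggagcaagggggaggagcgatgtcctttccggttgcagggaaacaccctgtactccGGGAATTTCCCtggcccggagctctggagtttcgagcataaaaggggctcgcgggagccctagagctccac
Cxcl2: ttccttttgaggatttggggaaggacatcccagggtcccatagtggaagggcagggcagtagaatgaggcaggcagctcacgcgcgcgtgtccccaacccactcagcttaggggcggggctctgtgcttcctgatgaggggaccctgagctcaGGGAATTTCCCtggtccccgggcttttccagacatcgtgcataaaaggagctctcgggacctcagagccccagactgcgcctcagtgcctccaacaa
Cxcl15: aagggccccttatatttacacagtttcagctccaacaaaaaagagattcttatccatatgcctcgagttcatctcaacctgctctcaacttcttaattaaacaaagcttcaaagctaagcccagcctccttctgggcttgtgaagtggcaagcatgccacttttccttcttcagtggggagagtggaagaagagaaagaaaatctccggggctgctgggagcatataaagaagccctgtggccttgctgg
The same 11 bases, GGGAATTTCCC, stood in capitals in both Cxcl1 and Cxcl2. They hold 2 overlapping matches that begin 71 and 70 bases before the start in Cxcl1, and 97 and 96 bases before it in Cxcl2. Cxcl15 held no match. Among the 8 members with a sequence, 3 held a match, the third being Cxcl10, and 7.25% of all 32851 promoter windows of this length held one. A match describes letters in this window and does not show that a factor binds there.

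Values are MAS5 signals, a linear brightness per probe set, and differences are on the log2 scale ± SE from limma. Signals of different probe sets are not comparable as amounts of RNA, since probe sets bind with unequal strength. In whole lung, a change in the number of cells of a type and a change in RNA per cell cannot be told apart. The arrays were already scaled to a trimmed mean near 500.2, and pairs of arrays correlated between 0.81 and 0.98. Above the test limit lay 15 of 16 probe sets of alveolar type 2 cells and 11 of 11 of airway epithelium, beside 13575 of all 22626. Cardiac muscle had 8 of 9 above it, and fibroblast and mesothelium 15 of 16, so passing this limit does not by itself identify the tissue. The 3'/5' ratio, the log2 signal of the 3' over the 5' control probe set averaged for Gapdh and actin, differed between arms, and high values mean less signal from the 5' end. It was 1.84 ± 1.28 (SD, n = 12; range 0.10 to 4.38) in the saline arrays and 0.21 ± 0.58 (SD, n = 12; range -0.13 to 2.02) in the OVA arrays. The log2 signal of the B1 repeat control was 12.98 ± 0.53 in saline and 11.55 ± 0.46 in OVA. These values stand beside every comparison of OVA with saline.

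Cxcl1, Cxcl2 and Cxcl5, and the interferon-induced Cxcl9 and Cxcl10, stayed near background. Near background means a mean log2 signal at or below the 40th percentile of all probe sets, a signal of 138. For scale, 81.7% of 60 probe sets of 34 genes made in other tissues, such as retina, testis or pituitary, lay below this limit, and their 90th percentile was a signal of 186. Over the 24 arrays the geometric mean signal was 77.7 for Cxcl2 (the 28.3rd percentile of all probe sets), 42.0 for Cxcl1 (19.3), 26.9 for Cxcl10 (13.9), 15.4 for Cxcl5 (8.36) and 15.4 for Cxcl9 (8.32). Cxcl1 passed 138 in 2 of 24 arrays, and the other 4 probe sets passed it in 0 of 24. Just above the limit lay 1 probe set of Cxcl14 (147) and 1 of Cxcl13 (156), which would count as near background at 186.

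Cxcl5, an epithelial neutrophil chemokine, was higher at the high exhaust dose than in most arrays of the other groups, in spite of its low level. Its signal was 6.76, 8.34, 4.41 and 7.17 in air with saline and 4.92, 5.98, 49.2 and 4.93 in DE 500 with saline. In DE 2000 with saline it was 68.2, 45.5, 111 and 37.8. The OVA arm had the same form, with 6.42, 5.40, 64.6 and 6.45 in air, 5.29, 5.48, 6.24 and 3.79 in DE 500, and 107, 25.8, 78.6 and 95.1 in DE 2000. All 8 DE 2000 arrays read 25.8 or more, whereas 14 of the 16 other arrays read 8.34 or less, and 1 array each of DE 500 with saline and air with OVA overlapped the DE 2000 range.

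Because its mean lay below the test limit, Cxcl5 was tested only in the fit without that filter, over 22626 probe sets. There the DE 2000 difference averaged over saline and OVA was 2.91 ± 0.52 (limma, adjusted p = 0.0265), and Cxcl5 was the 1 member called, with 0.0663% of all probe sets called. Within saline it was 3.21 ± 0.74 (limma, adjusted p = 0.136; 0.0796% of probe sets called) and within OVA 2.62 ± 0.74 (limma, adjusted p = 0.553; 0.00884% called), neither past the threshold. The saline value passed with array weights (limma, adjusted p = 0.0412) and without DE 500 with saline 3 (0.0488) or air with OVA 3 (0.0451). With a pseudocount of 16.2 added to each signal the average difference was 1.62 ± 0.29 (limma, adjusted p = 0.0259), which shows how far the size of a change at this brightness depends on the scale. The call was lost without the variance trend (limma, adjusted p = 0.0548) and in 11 of 24 fits that left out 1 array (limma, adjusted p 0.0506 to 0.0955): air with saline 2 and 3, DE 2000 with saline 1 to 4, air with OVA 1, 2 and 4, and DE 2000 with OVA 3 and 4. DE 500 differed from air by 0.50 ± 0.74 in saline and by -1.10 ± 0.74 in OVA.

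Cxcl1, known as KC and the partner of Cxcl2 and Cxcl5 at Cxcr2, was also high at DE 2000, but lay apart from air in the saline arm only. Its signal was 44.2, 6.93, 11.6 and 9.58 in air with saline, 13.3, 33.2, 14.5 and 9.27 in DE 500 with saline, and 84.0, 159, 115 and 82.3 in DE 2000 with saline. In the OVA arm it was 90.7, 85.2, 100.0 and 7.87 in air, 75.5, 38.4, 16.5 and 71.5 in DE 500, and 91.5, 91.2, 159 and 126 in DE 2000. DE 2000 and air did not overlap in saline, and in OVA they did. The 8 DE 2000 arrays read 82.3 or more, as did 3 of the other 16, all 3 from air with OVA.

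Without the filter, Cxcl1 differed by 2.97 ± 0.69 between DE 2000 and air in saline (limma, adjusted p = 0.144; with the pseudocount 1.96 ± 0.43, adjusted p = 0.0910) and by 1.20 ± 0.69 in OVA (limma, adjusted p = 0.752). Neither passed the threshold. The OVA difference includes air with OVA 4, which read 7.87 where the other arrays of that group read 85.2 to 100.0. The OVA difference without that array is not given here. The saline difference passed it in 1 fit, without air with OVA 4 (limma, adjusted p = 0.0311). The average over both arms was 2.08 ± 0.49 (limma, adjusted p = 0.184) and the difference between arms, the interaction, was -1.77 ± 0.98 (limma, adjusted p = 0.880). Leaving out each array in turn moved the average between 1.64 and 2.36. OVA against saline averaged over exposures gave 1.14 ± 0.40 (limma, adjusted p = 0.0320) without the filter, a call beside 31.1% of all probe sets called, and with the 3'/5' covariate, the array's ratio added to the model, 0.93 (limma, adjusted p = 0.349).

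Cxcl2, which carries the same capital run as Cxcl1, showed no such pattern. It read 61.0, 112, 93.9 and 67.4 in air with saline, 100.4, 49.4, 54.6 and 82.7 in DE 500 with saline, and 117, 104, 89.2 and 68.3 in DE 2000 with saline. In the OVA arm it read 62.3 to 107 in air, 60.4 to 114 in DE 500 and 42.1 to 112 in DE 2000. All groups overlapped. DE 2000 against air was 0.19 ± 0.34 in saline and -0.27 ± 0.34 in OVA (limma without the filter, adjusted p = 0.999 and 0.886).

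**Figure D1:**
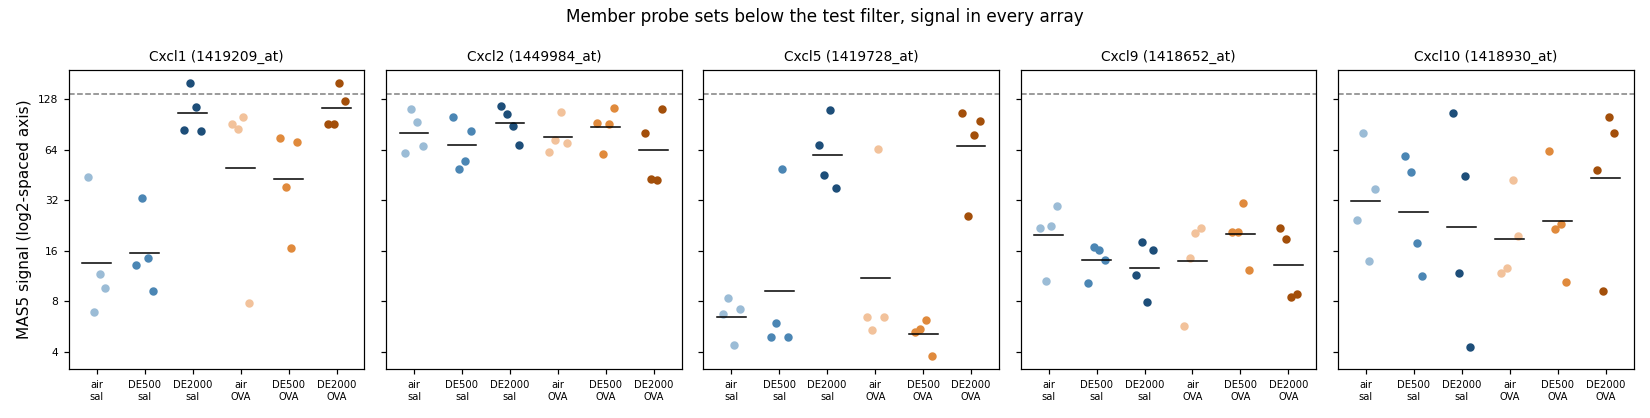
MAS5 signal of the 5 member probe sets near background in each of the 24 arrays (points) by group, on a log2-spaced axis, with the geometric mean of each group as a black bar and the test limit of 138 as a dashed line. Cxcl5 lies between 25.8 and 111 in the 8 DE 2000 arrays and at 8.34 or less in 14 of the other 16, while Cxcl2, Cxcl9 and Cxcl10 overlap in all groups.

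Cxcl9 and Cxcl10, the T cell attractants of the interferon response, overlapped in all groups. Cxcl9 lay between 5.74 and 30.9 in all 24 arrays. Cxcl10 lay between 4.27 and 106, and within DE 2000 with saline alone it was 106, 11.8, 44.7 and 4.27. In DE 2000 with OVA Cxcl10 was 48.7, 9.19, 100.2 and 80.3 against 11.9, 12.7, 42.1 and 19.7 in air with OVA, groups that overlap. That difference was 1.21 ± 0.88 (limma without the filter, adjusted p = 0.798). For Cxcl9 DE 2000 against air was -0.64 ± 0.49 in saline and -0.07 ± 0.49 in OVA (limma without the filter, adjusted p = 0.973 and 0.984).

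Among the 9 member probe sets that were tested, diesel exhaust gave no call. The counts were 0 of 9 for DE 2000 against air in saline, where 0.147% of all tested probe sets were called, and 0 of 9 for DE 500 in saline (0.00737% called). In the OVA arm they were 0 of 9 for DE 2000 (0.0221% called) and 0 of 9 for DE 500 (0% called). DE 2000 averaged over both arms gave 0 of 9 (0.0884% called) and its interaction with OVA 0 of 9 (0% called). By limma at an unadjusted p under 0.05, 125 of all tested probe sets passed for DE 500 in OVA and 829 for the interaction. With backgrounds this small, 0 of 9 does not set the members apart. The median difference of the 9 was 0.14 for DE 2000 in saline and -0.02 in OVA, beside -0.01 and -0.04 over all tested probe sets.

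**Figure D2:**
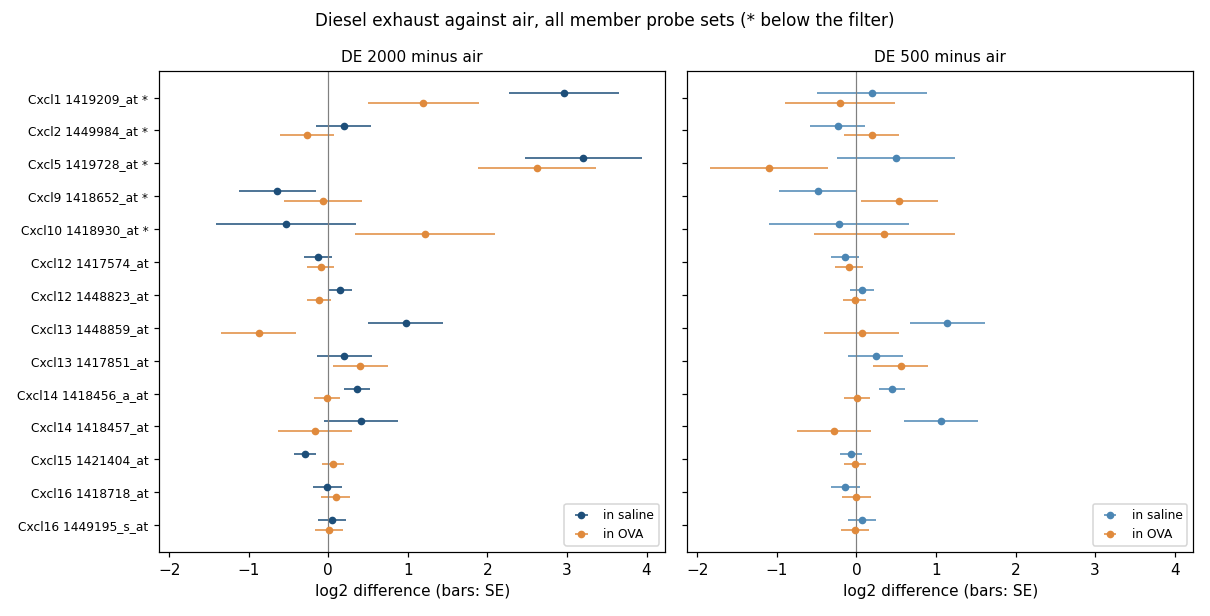
Log2 difference from air (points, bars SE) for DE 2000 (left) and DE 500 (right) in the saline and OVA arms, for all 14 member probe sets from the fit without the filter. The widest departures at DE 2000 are Cxcl5 (3.21 in saline, 2.62 in OVA) and Cxcl1 in saline (2.97), and both probe sets lie below the test limit.

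Cxcl15, lungkine, had a geometric mean signal of 8817, the 99.2nd percentile of all probe sets, far above background. In the saline arm it read 7815, 8959, 8377 and 8081 in air, 7103, 8965, 9860.1 and 6278 in DE 500, and 6568, 6676, 5769 and 8235 in DE 2000. In the OVA arm it read 10053, 9189, 11439 and 9858 in air, 11148, 8924, 10596 and 9321 in DE 500, and 11635, 9930.3, 10539 and 10057 in DE 2000. OVA and saline did not overlap in air or at DE 2000, and at DE 500 they did.

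Cxcl15 rose with OVA at DE 2000 by 0.64 ± 0.13 (limma, adjusted p = 0.00189) and averaged over exposures by 0.42 ± 0.07 (limma, adjusted p = 0.000138). In air the difference was 0.28 ± 0.13 (limma, adjusted p = 0.132) and at DE 500 0.33 ± 0.13 (limma, adjusted p = 0.0885). With the 3'/5' covariate the average was 0.26 ± 0.08 (limma, adjusted p = 0.0363) and the DE 2000 difference 0.53 (limma, adjusted p = 0.00233). With the B1 signal as a covariate neither passed (0.14, adjusted p = 0.571, and 0.29, adjusted p = 0.282). DE 2000 against air was -0.30 ± 0.13 in saline (limma, adjusted p = 0.753) and 0.06 ± 0.13 in OVA (limma, adjusted p = 0.911). Quantile normalization turned the second of these to -0.16. Their difference, 0.35 ± 0.18, did not pass (limma, adjusted p = 0.855).

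OVA against saline called 2 of the 9 probe sets in air (14.8% of all tested called), 0 of 9 at DE 500 (12.5% called) and 1 of 9 at DE 2000 (18.1% called). Averaged over exposures it called 5 of 9, 4 higher and 1 lower, beside 46.3% of all tested probe sets. A share of 5 in 9 is near that background. With the 3'/5' covariate 1 of 9, Cxcl15, was called, beside 14.1% of all tested probe sets.

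Cxcl12, which holds and guides Cxcr4-bearing cells and is made by stroma and endothelium, rose with OVA on 1 of its 2 probe sets. Probe set 1417574_at read 2257, 2509, 2389 and 2391 in air with saline, 1904, 2719.6, 2462 and 1709 in DE 500 with saline, and 2404, 2216, 2675 and 1597 in DE 2000 with saline. With OVA it read 3322, 2853, 3678 and 2573 in air, 3095, 2700.4, 2908 and 2853 in DE 500, and 2929, 3674, 3137 and 2033 in DE 2000. In 9 of 12 OVA arrays it exceeded every saline array. The rise averaged over exposures was 0.39 ± 0.10 (limma, adjusted p = 0.00307), and the value was 0.15 with the 3'/5' covariate (limma, adjusted p = 0.394) and 0.0015 with the B1 covariate (limma, adjusted p = 0.998). The other probe set, 1448823_at, read 672 to 1129 over all arrays and gave 0.14 ± 0.09 (limma, adjusted p = 0.181). DE 2000 against air was -0.13 ± 0.18 in saline and -0.10 ± 0.18 in OVA for the first probe set, where median scaling turned the second value to 0.01.

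Cxcl13, the B cell attractant of lymphoid follicles, was measured by 2 probe sets. Their OVA differences were alike averaged over exposures but differed in air and had opposite signs at DE 2000. At DE 2000 OVA against saline was -0.30 ± 0.47 for 1448859_at (limma, adjusted p = 0.699) and 0.53 ± 0.34 for 1417851_at (0.289). Probe set 1448859_at read 272, 357, 36.8 and 298 in air with saline and 457, 532, 608 and 520.4 in air with OVA, with no overlap. It rose by 1.54 ± 0.47 there (limma, adjusted p = 0.0330). Without the low array, air with saline 3, the difference was 0.78 (limma, adjusted p = 0.115), and without any 1 of the 4 air with OVA arrays the adjusted p lay between 0.0590 and 0.0736. With the 3'/5' covariate the difference was 1.10 (limma, adjusted p = 0.248), and in a fit to only the groups compared the adjusted p was 0.0699. At DE 500 the same probe set read 338, 469.8, 434 and 365 in saline and 376, 481, 627 and 821 in OVA, and at DE 2000 507, 307, 347 and 293 in saline and 526, 187, 322 and 216 in OVA. Both pairs overlap. Averaged over exposures the OVA difference was 0.57 ± 0.27 and did not pass (limma, adjusted p = 0.0894). The interaction of DE 2000 and OVA was -1.85 ± 0.67 (limma, adjusted p = 0.630).

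The second Cxcl13 probe set, 1417851_at, lies just above the test limit. It read 101, 129, 121 and 122 in air with saline, 117, 179, 165 and 109.9 in DE 500 with saline, and 259, 135, 151 and 64.7 in DE 2000 with saline. With OVA it read 106, 183, 206 and 122 in air, 172, 188, 171 and 412 in DE 500, and 220.5, 211, 144 and 222 in DE 2000. In air it differed by 0.33 ± 0.34 (limma, adjusted p = 0.518), and averaged over exposures it rose by 0.50 ± 0.20 (limma, adjusted p = 0.0393). That call did not hold without the filter (limma, adjusted p = 0.0569), under quantile normalization (0.0760), under median scaling (0.0626), with array weights (0.0673), with the replicate block (0.0527) or with the 3'/5' covariate (0.373). Summed signals of 8 B cell marker probe sets were 1717 to 2942 in air with saline and 1763 to 2943 in air with OVA. B cell markers counted 0 called of 5 tested for OVA averaged over exposures, beside 46.3% of all tested probe sets called, with a median of -0.18 beside -0.01 over all.

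Cxcl14, an epithelial chemokine found in many tissues at rest, also had 2 probe sets, and both were called for OVA averaged over exposures, 1 higher and 1 lower. Probe set 1418457_at read 125, 126, 99.4 and 22.6 in air with saline and 241, 183, 289.6 and 192 in air with OVA, with no overlap, and rose by 1.53 ± 0.46 (limma, adjusted p = 0.0313). Without the low array, air with saline 4, the difference was 0.94 (limma, adjusted p = 0.0934), and without air with saline 3 or air with OVA 1, 3 or 4 the adjusted p lay between 0.0577 and 0.0796. With the 3'/5' covariate it was 1.08 (limma, adjusted p = 0.247). At DE 500 the OVA difference was 0.18 ± 0.46 (limma, adjusted p = 0.820) and at DE 2000 0.95 ± 0.46 (limma, adjusted p = 0.156), and the groups overlapped at both doses. DE 500 against air in saline was 1.06 ± 0.46 (limma, adjusted p = 0.558). Averaged over exposures it rose by 0.89 ± 0.27 (limma, adjusted p = 0.00927), while the value was 0.45 with the 3'/5' covariate (limma, adjusted p = 0.399) and 0.016 with the B1 covariate (limma, adjusted p = 0.991). Probe set 1418456_a_at fell by 0.25 on the log2 scale over the same average (SE 0.10, limma, adjusted p = 0.0388), and with the 3'/5' covariate the value was -0.29 (limma, adjusted p = 0.127). That call was also lost without the filter (limma, adjusted p = 0.0506) and with array weights (0.0569). By exposure, OVA against saline for 1418456_a_at was 0.03 ± 0.17 in air (limma, adjusted p = 0.927). It was -0.41 ± 0.17 at DE 500 (limma, adjusted p = 0.0924) and -0.35 ± 0.17 at DE 2000 (0.147), so the lower average came from the exhaust groups. There the saline arrays were higher: geometric mean signals in saline were 700 in air, 951 in DE 500 and 897 in DE 2000. With OVA they were 713, 713 and 704, near air with saline.

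In saline, the second probe set, 1418456_a_at, was the tested member whose exhaust and air arrays did not overlap. It read 687, 796, 667 and 656 in air, 902, 926, 969 and 1009 in DE 500, and 820.2, 1141, 840.1 and 825 in DE 2000, so that neither dose overlapped air. The differences were 0.44 ± 0.17 for DE 500 (limma, adjusted p = 0.446) and 0.36 ± 0.17 for DE 2000 (limma, adjusted p = 0.800), and neither passed the threshold. The share of all probe sets without overlap was not counted in any comparison. Lack of overlap alone therefore does not set this or another member apart. With OVA 1418456_a_at read 741, 635, 832 and 659 in air, 677, 826, 751 and 616 in DE 500, and 951, 495, 851 and 612 in DE 2000. These groups overlap.

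Cxcl16, a transmembrane chemokine and scavenger receptor of macrophages and epithelium that is released by Adam10 and Adam17, gave no call in any of the 10 comparisons. Probe set 1418718_at read 562 to 886 in the 12 saline arrays and 570.0 to 959 in the 12 OVA arrays. Its largest difference was 0.19 ± 0.18, for OVA at DE 500 (limma, adjusted p = 0.514). Probe set 1449195_s_at read 228 to 365 in saline and 193 to 326 in OVA, and the OVA difference averaged over exposures was -0.19 ± 0.10 (limma, adjusted p = 0.125).

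**Figure D3:**
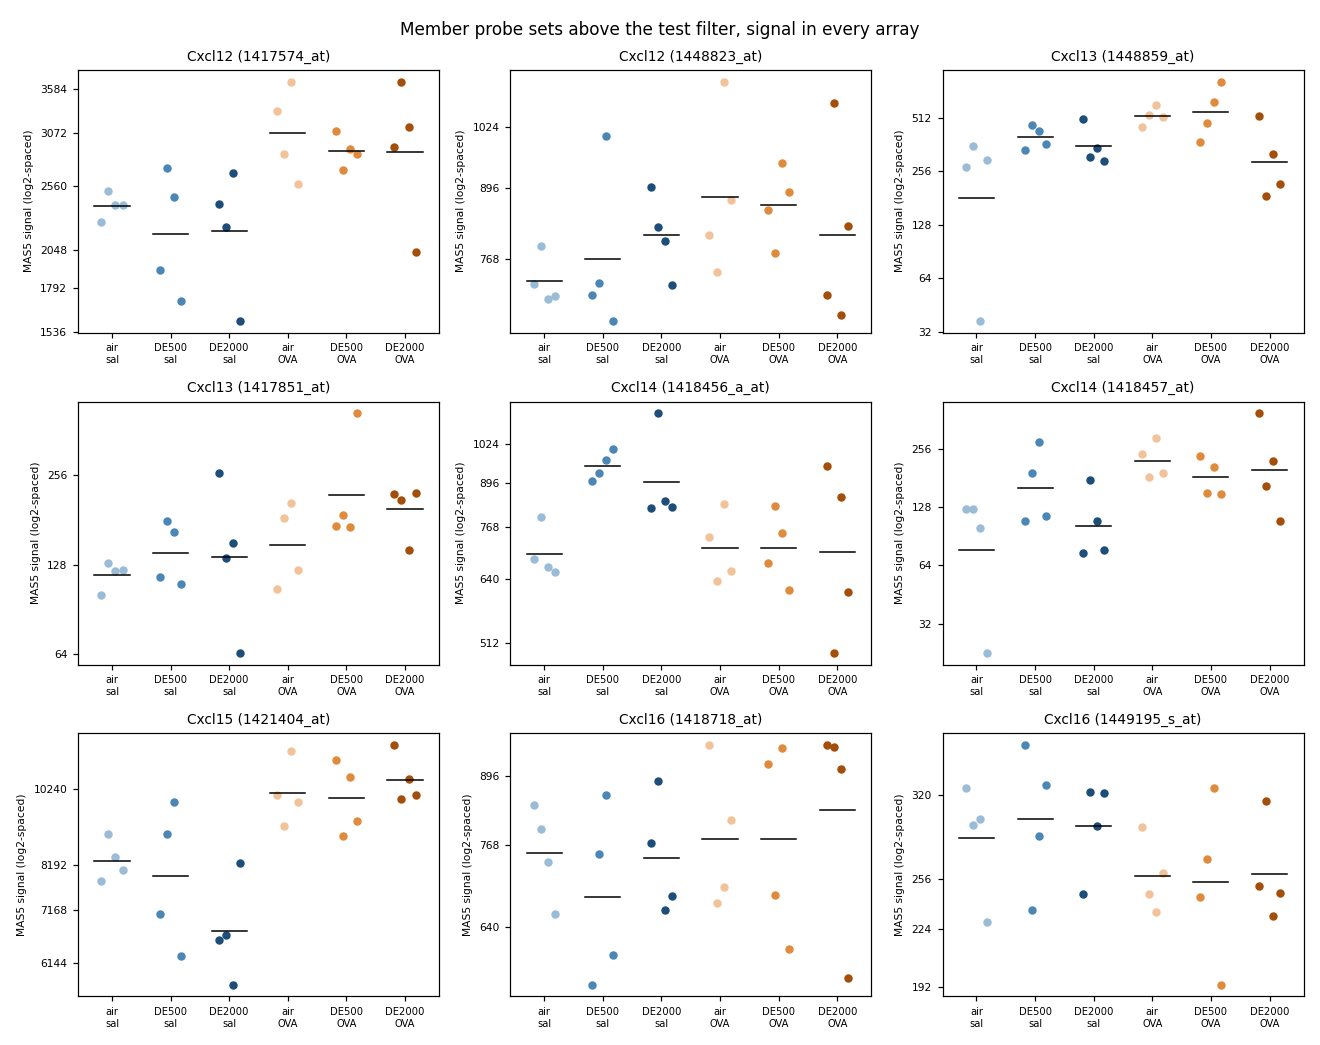
MAS5 signal of the 9 tested member probe sets in each of the 24 arrays (points) by group, each panel with its own log2-spaced axis, with the geometric mean of each group as a black bar. Cxcl15 lies between 8924 and 11635 with OVA and between 5769 and 9860.1 with saline, and the low arrays of Cxcl13 1448859_at (36.8) and Cxcl14 1418457_at (22.6) lie in air with saline.

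The pairs of probe sets for 1 gene followed each other loosely. After each group's mean was taken off, the log2 signals of the pair correlated over the 24 arrays at r = 0.53 for Cxcl14, 0.46 for Cxcl12, 0.27 for Cxcl16 and 0.27 for Cxcl13. The same residuals correlated with the 3'/5' ratio at -0.62 for Cxcl12 1417574_at, -0.59 for Cxcl15 and -0.57 for Cxcl16 1418718_at, so that arrays with a high ratio had a low signal within their group for these probe sets. The sign was opposite for Cxcl2 (0.57) and Cxcl16 1449195_s_at (0.34), and for Cxcl5 and Cxcl1 the values were -0.36 and -0.13. Over all 14 probe sets the values ran from -0.62 to 0.57. These are descriptions over arrays that differ in RNA quality.

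**Figure D4:**
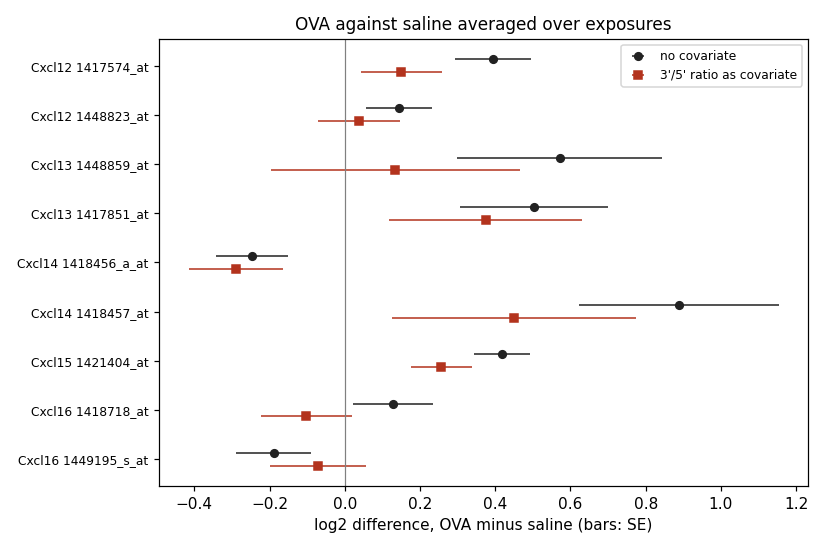
Log2 difference of OVA against saline averaged over exposures (points, bars SE) for the 9 tested member probe sets, without a covariate (black circles) and with the 3'/5' covariate (red squares). Cxcl15 moves from 0.42 to 0.26, Cxcl12 1417574_at from 0.39 to 0.15, and Cxcl16 1418718_at from 0.13 to -0.10.

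The genes whose residual log2 signal was most like that of each member were found over the 24 arrays, which differ in RNA quality. For Cxcl15 they were Fads2 (r = 0.88), a fatty acid desaturase, Sh3gl1 (0.82) and Tcf25 (0.80). For Cxcl12 1417574_at they were Ythdf3 (0.84), Gart (0.84) and Vcam1 (0.84), the endothelial adhesion molecule. Cxcl13 1448859_at was most like Jam3 (0.94), Cxcl14 1418456_a_at like Tor1aip2 (0.76) and Cxcl16 1418718_at like Dusp14 (0.86). The value for Jam3 includes the low array of that Cxcl13 probe set, air with saline 3 (36.8), and by ranks (Spearman) it was 0.87.

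The receptors, inducing cytokines and NF-kappaB genes had no probe set called for DE 2000 in saline or in OVA, where 0.147% and 0.0221% of all tested probe sets were called, so these counts of 0 do not set the lists apart. Of the receptors, 6 probe sets were tested, those of Cxcr3, Cxcr4, Cxcr5, Cxcr6, Ackr1 and Ackr3, with a median of 0.01 in saline and -0.08 in OVA. For OVA averaged over exposures 0 of 6 were called, beside 46.3% of all tested probe sets. Cxcr2, the receptor of Cxcl1, Cxcl2 and Cxcl5, lay below the test limit. Of cytokines that induce CXC chemokines, 4 probe sets were tested, with a median of 0.37 for DE 2000 in saline and 0.03 in OVA. Il1b was at 0.75 ± 0.22 in saline (limma, adjusted p = 0.270) and Ltb, the membrane lymphotoxin, at 0.92 ± 0.43 (limma, adjusted p = 0.812). The remaining tested cytokines lay below 0 in saline, Il1a at -0.52 ± 0.38 and Il33 at -0.02 ± 0.15. In OVA Il1b was at -0.25 ± 0.22 (limma, adjusted p = 0.767) and Ltb at 0.41 ± 0.43 (0.796). OVA against saline averaged over exposures called 1 of the 4 cytokines, Il1a at 0.82 ± 0.22 (limma, adjusted p = 0.00473), beside 46.3% of all. At DE 2000, OVA against saline called Il1a at 1.10 ± 0.38 (limma, adjusted p = 0.0496) and Il1b at -0.78 ± 0.22 (0.0185), beside 18.1% of all. These OVA values are without a covariate. Tnf, Il6, Ifng and Il17a lay below the limit. The 24 NF-kappaB probe sets had a median of -0.02 for DE 2000 in saline and -0.04 in OVA, beside -0.01 and -0.04 over all tested probe sets. Those of smallest p in saline were Nfkbiz 1448728_a_at, a nuclear regulator of NF-kappaB, at 0.60 ± 0.19 (limma, adjusted p = 0.350) and Tnfaip2 1438855_x_at, a TNF-induced gene, at 0.85 ± 0.30 (limma, adjusted p = 0.501).

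With OVA averaged over exposures, 4 rose and 6 fell of 24 NF-kappaB probe sets, beside 46.3% of all probe sets called. Of the proteases, 3 of 11 rose and 1 fell. These included the Adam10 probe set 1450105_at, at 1.78 ± 0.27 (limma, adjusted p = 2.46e-05), with a geometric mean signal of 227. A brighter Adam10 probe set, 1428103_at (1560), was also tested, and its value is not given here. Cxcl17, a mucosal chemokine outside the member list, rose by 0.39 ± 0.06 (limma, adjusted p = 5.6e-05). Ppbp, the platelet chemokine next to Cxcl5 on chromosome 5, rose by 0.39 ± 0.15 (limma, adjusted p = 0.0415). All values in this paragraph are from the fit without a covariate, between arms that differed in 3'/5' ratio and B1 signal. With the 3'/5' covariate 14.1% of all tested probe sets were called, and the values of these 3 genes with it are not given here.

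Neutrophil markers were measured beside the neutrophil chemokines. Of 14 neutrophil probe sets 9 were tested, and all 9 lay above 0 for DE 2000 in saline, with a median of 0.89 beside -0.01 over all. The 1 call was Cd177, a surface protein of neutrophils, at 2.39 ± 0.30 (limma, adjusted p = 0.000683), beside 0.147% of all tested probe sets called. In OVA 5 of 9 lay above 0, with a median of 0.15 beside -0.04 over all. Cd177 was again the call, at 1.90 ± 0.30 (limma, adjusted p = 0.0134), beside 0.0221% called. For the interaction of DE 2000 and OVA 0 of 9 lay above 0, with a median of -0.49 beside -0.02, and 0 were called. At DE 2000, OVA against saline called 3 of 9 lower and 0 higher, beside 18.1% of all tested probe sets called. The summed signal of the list was 4655 to 7168 in air with saline and 8456 to 13820 in DE 2000 with saline, and 5128 to 7086 in air with OVA and 5594 to 7371 in DE 2000 with OVA. Cxcl5 was high at DE 2000 in both arms, and the summed neutrophil signal separated DE 2000 from air in the saline arm. The part of neutrophils in the Cxcl1 and Cxcl5 values was not tested. Alveolar macrophage markers had 0 of 10 probe sets called for DE 2000 in saline (0.147% of all called) and in OVA (0.0221%), which does not set them apart. All 5 eosinophil probe sets lay below the test limit.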

How the data were processed

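The authors deposited a linear intensity for each probe set and array, computed with MAS5 per the submitters' processing notes. Per the labels' protocols, 2 ug of RNA from frozen lung was turned into biotinylated cRNA. After 64 control probe sets were set aside, 22626 remained, of which 20380 name 1 gene, 691 several and 1555 none. Probe sets of 1 gene were not merged. Signals were taken to log2, and those with a mean above the 40th percentile (signal 138) were tested with limma 3.58.1 in R 4.3.3: 1 mean per group over 24 arrays, eBayes with trend, two-sided, Benjamini-Hochberg over all tested probe sets of each of 10 comparisons, called at adjusted p under 0.05. The fit was tested on simulated data. Tables, motif matches and figures used Python 3.11.15, pandas 2.3.3 and matplotlib 3.10.9.

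The members and gene lists were chosen with earlier results of these data known. All members are named. From the pathway lists, called members and those of smallest p may be named, and for each tested member the 3 genes whose residuals correlate most with it were found, of which some are printed. The result of 1 pathway list is not reported here. The labels give no batch, and replicate numbers did not pair arrays: over 60 same-numbered pairs the residual correlation averaged 0.03 (-0.43 to 0.59). Alternatives were quantile normalization, median scaling, no filter, a stricter filter, a pseudocount, array weights, no variance trend, fits to only the groups compared, a replicate block, RNA quality covariates and leaving out each array.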

Additional observations from a re-analysis of the deposited data

Results flagged for a closer look

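Of 84 sets of 4 arrays (14 probe sets in 6 groups), 9 held 1 array with a wide gap to the nearest other on the log2 scale. As a share of the log2 range of the set, this gap was above Dixon's critical value at 95%, where chance gives about 5% of sets. The signals printed here are linear. For Cxcl1, air with OVA 4 read 7.87 where the others read 85.2 to 100.0. For Cxcl5, DE 500 with saline 3 read 49.2 (others 4.92 to 5.98) and air with OVA 3 read 64.6 (others 5.40 to 6.45). For Cxcl13 1448859_at, air with saline 3 read 36.8 (others 272 to 357). For Cxcl13 1417851_at, DE 500 with OVA 4 read 412 (others 171 to 188) and DE 2000 with OVA 3 read 144 (others 211 to 222). For Cxcl14 1418456_a_at, DE 2000 with saline 2 read 1140 (others 820.2 to 840.1). For Cxcl14 1418457_at, air with saline 4 read 22.6 (others 99.4 to 126). For Cxcl16 1418718_at, DE 2000 with OVA 4, an array with a high 3'/5' ratio (2.02), read 570 (others 910.1 to 959).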

How the results depend on the processing

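Counts are of the 9 tested member probe sets called. The counts for DE 2000 and DE 500 against air in each arm and for the interaction were 0 under every alternative run. With the filter removed and a further choice changed, Cxcl5 passed for DE 2000 in saline with array weights or without DE 500 with saline 3 or air with OVA 3, and Cxcl1 without air with OVA 4. For DE 2000 averaged over both arms the count was 1 (Cxcl5) without the filter, which adds 5 member probe sets, and 0 under the others run. For OVA in air (2) it was 1 under the stricter filter, 0 with the 3'/5' covariate, with the B1 covariate and with both, and 4 without 3 arrays with high 3'/5' ratios, a choice made after seeing the data, as was fitting both covariates. For OVA at DE 2000 (1) it was 0 with the B1 covariate and with both, and 3 without those 3 arrays. For OVA averaged over exposures (5) it was 3 under the stricter filter, with array weights and without those 3 arrays, 1 with the 3'/5' covariate, and 0 with the B1 covariate and with both. The cause of these moves was not tested. Leaving out each of the 24 arrays gave 0 to 2 for OVA in air, 0 to 2 at DE 500 (2 without DE 500 with saline 2 and 1 without 3), 1 to 2 at DE 2000 (2 without DE 2000 with OVA 1 or 4), and 3 to 5 for the average. For OVA in air the count was 0 without air with saline 3 or air with OVA 1, 3 or 4, and 1 without air with saline 4 or air with OVA 2. For the average it was 3 without DE 500 with saline 4, DE 2000 with saline 2, air with OVA 2, DE 500 with OVA 4, or DE 2000 with OVA 2 or 4. Cxcl14 1418457_at for OVA averaged over exposures turned to -0.016 (adjusted p = 0.993) with both covariates. Without 1 array, Cxcl13 1417851_at lost its average call in 12 of 24 fits (air with saline 1, 3; DE 500 with saline 1, 4; DE 2000 with saline 2, 4; air with OVA 2, 3; DE 500 with OVA 4; DE 2000 with OVA 1, 2, 4; adjusted p 0.0506 to 0.0809). Cxcl14 1418456_a_at lost it in 9 (air with saline 2, DE 500 with saline 4, DE 2000 with saline 2, air with OVA 2, 4, DE 500 with OVA 1, 4, DE 2000 with OVA 2, 4; 0.0579 to 0.0759). Cxcl1, tested without the filter, lost it in 12 (air with saline 2, 4, DE 500 with saline 1, 4, DE 2000 with saline 1, 4, air with OVA 1, 2, 3, DE 500 with OVA 1, 4, DE 2000 with OVA 3; up to 0.0611). With the replicate block the OVA average called 4, the lost probe set being Cxcl13 1417851_at (adjusted p = 0.0527). Median scaling moved the median of all probe sets to -0.13 for OVA in air and 0.10 for the interaction. Signals below the test limit give folds that depend on scale.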
